A study of Yucca flaccida with 12 samples.

Results

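A set of 55 genes, out of 185746 in the table, had its lowest level in the centre of variegated leaves of Yucca flaccida 'Golden Sword'. The members were chosen by their measured counts: in CPM (a gene's count divided by its library's total count and multiplied by 1000000), the highest of the 3 variegated-centre libraries was at most 0.5 times the lowest of the other 9, and that lowest value was at least 1 CPM. Of 60 genes that met this, 5 were left out because both variegated zones lay at or below 0.5 times every unvariegated library. None of the 60 was among the 150 genes of highest mean CPM, a second reason for leaving a gene out. The low level in the variegated centre is therefore the definition of the set and not a finding about it.

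In variegated leaves, zones of one blade differ in colour. Such zones are usually cells whose plastids do or do not make functional, pigmented chloroplasts. Because chloroplasts signal to the nucleus, many nuclear transcripts are known from other plants to depend on plastid state, in addition to genes that differ by position in the blade.

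The libraries came from in vitro plants, with no treatment, from the leaf that was second youngest on the plant. Every plant was of the genotype 'Golden Sword'. Leaves of the variegated phenotype gave an edge group (VE) and a centre group (VC), and unvariegated leaves gave UE and UC in the same way, with 3 libraries in each group. The sources name neither the colour of a zone nor the plant behind each library. The p-values therefore measure only the spread between these libraries, and that spread may be technical. Polyadenylated RNA was sequenced, and rounded totals ran from 13139006 to 20305940 counts per library. A gene here is a cluster of assembled transcripts known only by an identifier. The files do not pair identifiers with gene names or sequences, so the functions of the members are not given, the tissue could not be checked against marker genes, and only a few identifiers are named.

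The summed level of the 55 members was 75.4 CPM in VC1, 73.0 CPM in VC2 and 107 CPM in VC3. In the other 9 libraries it ran from 1174 CPM in VE1 to 2515 CPM in UE2. The median member had 0.541 CPM as its VC mean and 6.59 CPM as its mean over the other 9 libraries. In bulk leaf RNA, fewer cells of a type and less RNA per cell cannot be told apart. Most members were of low to moderate abundance: 22 reached a mean of 10 CPM outside VC and 8 reached 50 CPM, with a range of 2.22 to 404.9 CPM.

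The size of the reduction varied widely among the members. The ratio of the highest VC value to the lowest value elsewhere had a median of 0.217; it was at most 0.1 in 13 members and at most 0.25 in 29. With counts pooled over libraries, the other 9 stood above VC by a median factor of 13.2, over a range of 3.49 to 239.9 in the 54 members with any VC count. A count of 0 occurred in at least 1 VC library in 16 members and in no library outside VC. VC3 was the highest of the 3 VC libraries in 27 members, or 49.1%, against 52.3% of the 29160 genes that had at least 1 CPM in all 9 libraries outside VC.

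**Figure D1:**
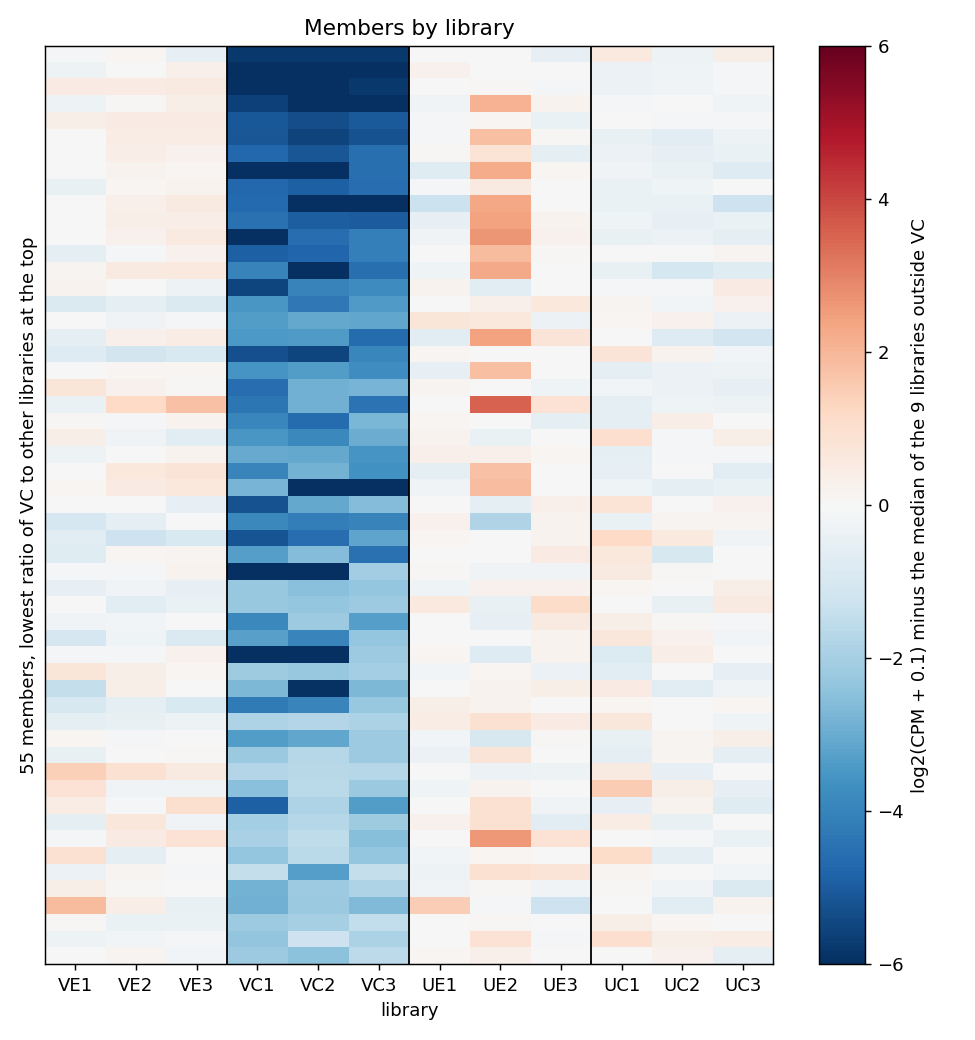
Level of each of the 55 members (rows) in each of the 12 libraries (columns), as log2(CPM + 0.1) minus the gene's median over the 9 libraries outside VC; blue is lower and red higher, and colours end at 6 in either direction. The VC columns are blue by the choice of members, and the UE2 column shows a group of red rows, among them the 13 members described below for their UE2 level.

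Cluster-20123.11098 had the lowest ratio, with no count in any VC library. Its level was 5.13, 5.79 and 3.79 CPM in VE1 to VE3, 5.44, 5.41 and 3.76 CPM in UE1 to UE3, and 8.23, 4.41 and 6.88 CPM in UC1 to UC3. The other 3 groups overlapped, and the gene was 0 only in VC. Against an assumed floor of 3 counts over the VC group, which covers counting error only, its pooled level outside VC was 88.2-fold higher.

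Cluster-20123.85164 came next. It had 0.103, 0.152 and 0.496 CPM in VC1 to VC3. In VE it had 52.6, 67.2 and 81.8 CPM, in UE 77.2, 65.5 and 66.3 CPM, and in UC 51.5, 54.6 and 63.2 CPM. The 9 libraries outside VC thus spanned less than the step between any of them and VC. VE overlapped both UE and UC, while every UC library lay below every UE library. Pooled, the gene stood 239.9 times higher outside VC, the largest pooled factor among the members with VC counts.

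Cluster-20123.83236 had the highest CPM of the set outside VC. It had 253.5, 202.7 and 231.5 CPM in VE1 to VE3 and 10.9, 9.44 and 28.2 CPM in VC1 to VC3. Unvariegated leaves held 465.5, 438.0 and 431.5 CPM in UE and 741.9, 498.5 and 380.7 CPM in UC. All VE libraries were below all unvariegated libraries, so the order was VC, then VE, then UE and UC, which overlapped. This gene supplied much of the set's summed level; without it the sum was 905 to 1120 CPM in 8 of the 9 libraries outside VC and 2077 CPM in UE2.

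Cluster-20123.34662 was second by mean CPM outside VC, a mean that takes in its high UE2 value. It had 72.9, 94.2 and 116.9 CPM in VE, 78.2, 389.2 and 106.9 CPM in UE, and 86.2, 91.1 and 75.5 CPM in UC. Among the VC libraries it was uneven: 1.76 CPM in VC1, 0 in VC2 and 0.00638 CPM in VC3. Per length these 3 genes kept their order but lay further apart at the top: the deposited FPKM (counts scaled by effective length and library total) averaged 691.0 for Cluster-20123.83236, 20.4 for Cluster-20123.34662 and 13.1 for Cluster-20123.85164 over the 9 libraries outside VC. Some other members had a higher mean FPKM than Cluster-20123.34662.

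**Figure D2:**
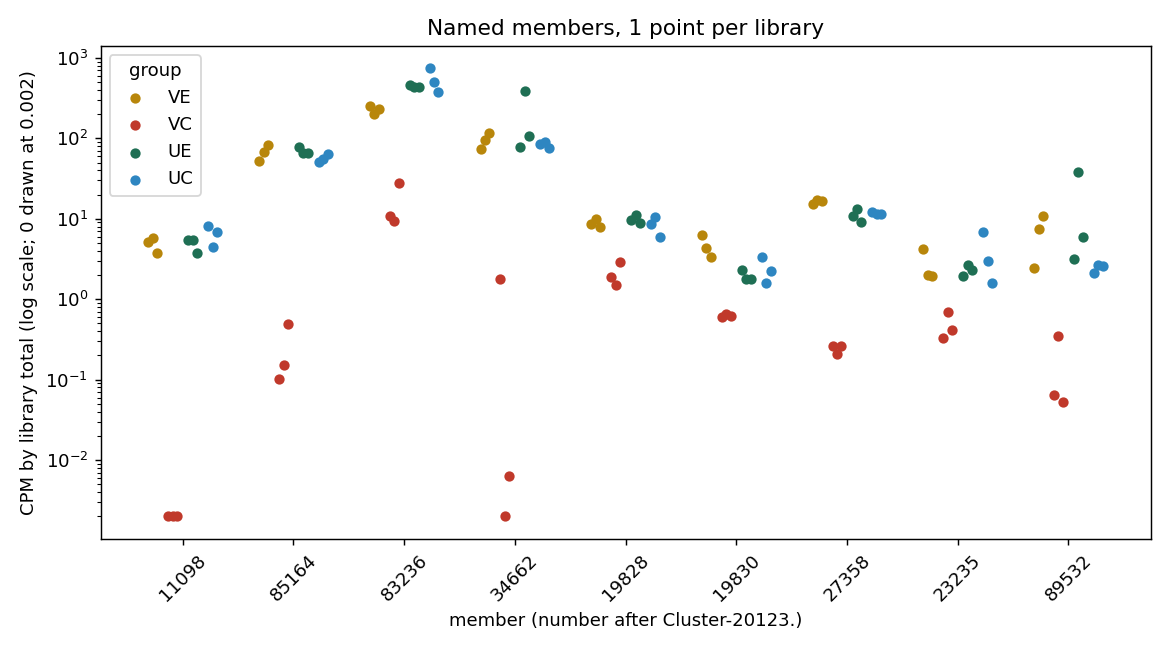
CPM of 9 named members on a log scale, 1 point per library, coloured by group; a value of 0 is drawn at 0.002. In each of the 9 members the VC points lie below every other point, as the choice requires, while VE, UE and UC mostly overlap. Cluster-20123.83236 is lower in VE than in unvariegated leaves. Cluster-20123.27358 and Cluster-20123.19830 are higher in VE, the latter only just above its highest UC point.

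The threshold cut through a continuous range. Just inside it, Cluster-20123.19828 had 1.88, 1.52 and 2.94 CPM in VC against 5.93 to 11.1 CPM elsewhere, a ratio of 0.495. Just outside it, Cluster-20123.21934 had 2.02, 3.45 and 6.06 CPM in VC against 11.9 to 20.4 CPM elsewhere, a ratio of 0.508. Between ratios of 0.4 and 0.5 lay 14 members, and 19 further genes that met the other criteria lay between 0.5 and 0.6. On the level criterion, the nearest member had a lowest value of 1.03 CPM outside VC and the nearest gene left out had 0.975 CPM.

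The same criterion turned to the other groups kept fewer genes. Before any gene was left out, 60 genes were lowest in VC, 18 in VE, 8 in UE and 1 in UC. With TMM scaling, which corrects library sizes for RNA composition, these counts were 77, 6, 7 and 2. At a ratio of at most 0.1 the counts by library total were 13 in VC, 1 in VE, 0 in UE and 0 in UC. These are counts in 3 libraries per group and carry no test.

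Each VC library was also read where it had not been used to choose genes. Chosen without VC1, 65 genes were kept, of which 60 lay below the lowest outside value in VC1. Without VC2, 69 were kept and 64 lay below it in VC2. Without VC3, 81 were kept and 65 lay below it in VC3, where 16 genes were therefore at or above the lowest outside value. As a reference, VC1, VC2 and VC3 lay below the lowest outside value in 14.6%, 7.24% and 4.13% of the 29160 genes with at least 1 CPM in all 9 outside libraries. The 9 outside libraries were the same in each choice, so these are not fully separate readings.

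All 55 members passed the filter on low counts, which their choice by level implies, and were tested with 59225 genes in a single edgeR fit. In contrasts that involve VC the calls follow from the choice and are given as a description. The edgeR quasi-likelihood test at an adjusted p below 0.05 called 49 members lower in VC than in VE, against 0.571% of all tested genes, and 51 lower in VC than in UC, against 2.43%. Both contrasts called 47. The zone difference differed between phenotypes (more negative in variegated leaves) for 19 members, against 0.0608% of all tested genes. Median log2 fold changes of the members were -3.99 in VC against VE and -3.69 in VC against UC, beside 0.00 and -0.04 over all tested genes. The count in VC against VE was 30 without VE2 and 27 without VC2. All tested genes then gave 62 and 58 lower calls, in place of 338. The count in VC against UC was 33 without VC1 and 32 without VC2. All tested genes then gave 418 and 288 lower calls, in place of 1437. The count of members whose zone difference differed was 12 or fewer without any one of VE1, VE2, VE3, VC1, VC2, UE1, UE3, UC1 and UC2, down to 9. All tested genes then gave 9 to 34 such lower calls, in place of 36.

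The next contrast, VE against UE, was used by the choice in part, because the 5 genes left out had VE at or below 0.5 times every UE and UC library. All 5 had log2 fold changes in VE against UE of -1.04 or below, and edgeR called 2 of them lower. The lack of lower calls among the members is thus partly fixed by the choice. In this contrast edgeR called 2 of the 55 higher, where 3.33% of all tested genes were higher, and 0 lower, where 1.94% were. DESeq2 called 4 higher and 0 lower, beside 3549 higher and 2440 lower of the 59225 tested genes. At an unadjusted p below 0.05 edgeR found 4 higher and 2 lower. Of all tested genes, 20.2% passed that limit in either direction. A member was called lower in 4 other settings, 1 in each: Cluster-20123.83236 with only the VE and UE libraries, Cluster-20123.24401 with the 9 libraries outside VC and without VC3, and Cluster-20123.19396 with limma on FPKM. The members' median log2 fold change was -0.02, with a range of -0.997 to 1.53, and the median over all tested genes was -0.04. With the 5 genes put back, 2 of 60 were called higher and 2 lower, and 90% had an absolute log2 fold change under 1, against 90.7% of the 29160 genes with at least 1 CPM in the 9 libraries outside VC. With library totals in place of TMM, the median of all tested genes was -0.32 and that of the members -0.28. Without UE2 the members' median was 0.34 and 1 member was called; without VE1, VE2, UE1 or UE3, 0 were called, and without VC3, 4 were.

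The 2 members called in VE against UE were higher at the variegated edge. Cluster-20123.19830 had 6.23, 4.31 and 3.39 CPM in VE, 2.28, 1.79 and 1.804 CPM in UE, 3.39, 1.58 and 2.27 CPM in UC and 0.604, 0.657 and 0.618 CPM in VC. Every VE library lay above every UE library, and the lowest VE library was close to the highest UC library. Its log2 fold change was 1.53 (SE 0.34, edgeR adjusted p = 0.0289, all 3 VE libraries higher). The call was lost without VE1 (1.22, edgeR adjusted p = 0.136), VE2 (0.0772), VC2 (0.0511), UE1 (0.0745), UE2 (0.0792) or UE3 (0.117), and adjusted p ran from 0.00381 to 0.136 over all settings.

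Cluster-20123.27358 had 15.2, 17.0 and 16.8 CPM in VE, 10.99, 13.1 and 9.25 CPM in UE, 12.1, 11.6 and 11.4 CPM in UC and 0.260, 0.207 and 0.266 CPM in VC. The VE libraries were above all others. Its log2 fold change in VE against UE was 0.83 (SE 0.17, edgeR adjusted p = 0.0198). The call was lost without VE1 (edgeR adjusted p = 0.0673), VE2 (0.0765), UE1 (0.0737) or UE3 (0.0755), with library totals only (0.55, adjusted p = 0.055), with no filter (0.0626) and with limma on FPKM (0.0615). The range was 0.00124 to 0.0765. An effective length of 27 bases is implied by its deposited FPKM, so its per-length level is unreliable.

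Cluster-20123.83236, whose VE libraries were below all unvariegated ones by library total, did not pass in VE against UE. Its log2 fold change was -0.67 (SE 0.32, edgeR adjusted p = 0.273), or -0.96 with library totals only. With only the VE and UE libraries in the fit it was called lower (-0.68, edgeR adjusted p = 0.0423). By library total, all VE libraries lay below all UE and UC libraries in 7 members, a count the choice lowers since all 5 genes left out had this order. With them it was 12 of 60, or 20%, against 17% of all tested genes and 23.9% of the 29160 genes named above. They lay above all of them in 3 members, or 5.45%, against 4.87% of all tested genes.

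Between the zones of unvariegated leaves no member was called. In UC against UE, which shares the UE libraries with the contrast above, edgeR called 0 of the 55 higher and 0 lower, beside 0.00169% of all tested genes higher and 0% lower, and DESeq2 also called 0. At an unadjusted p below 0.05, 15 members were lower and 0 higher in UC; 5.22% of all tested genes passed that limit in either direction. The members' median log2 fold change was -0.36, beside 0.00 over all tested genes. All UC libraries lay below all UE libraries in 9 members, against 2.7% of all tested genes, and above them in 0, against 8.31%. Among the 13 linked members described below for their high UE2 level were 11 of the 15 and 6 of the 9. The count of 15 depended most on UE2, and the median depended on it only in part. Without that library, 3 members passed the unadjusted limit and the median was -0.25. The count was also lower without UC1, UC2 or UC3, at 9, 11 and 10, and was 8 with only the 2 groups compared. It was 17 without UE1 and 16 without UE3.

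The members at the ends of this contrast show that spread. Cluster-20123.89532 had 3.19, 37.9 and 5.88 CPM in UE and 2.13, 2.67 and 2.57 CPM in UC, a log2 fold change of -2.81 (SE 0.87, edgeR adjusted p = 0.871). Its UE libraries were all above its UC libraries, but UE2 stood far above UE1 and UE3. In VE it had 2.42, 7.51 and 10.8 CPM. At the other end, Cluster-20123.23235 had 1.94, 2.69 and 2.32 CPM in UE and 6.82, 3.00 and 1.60 CPM in UC (log2 fold change 0.58, SE 0.51, edgeR adjusted p = 1). Its groups overlapped, and without UC1 the log2 fold change was -0.14.

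**Figure D3:**
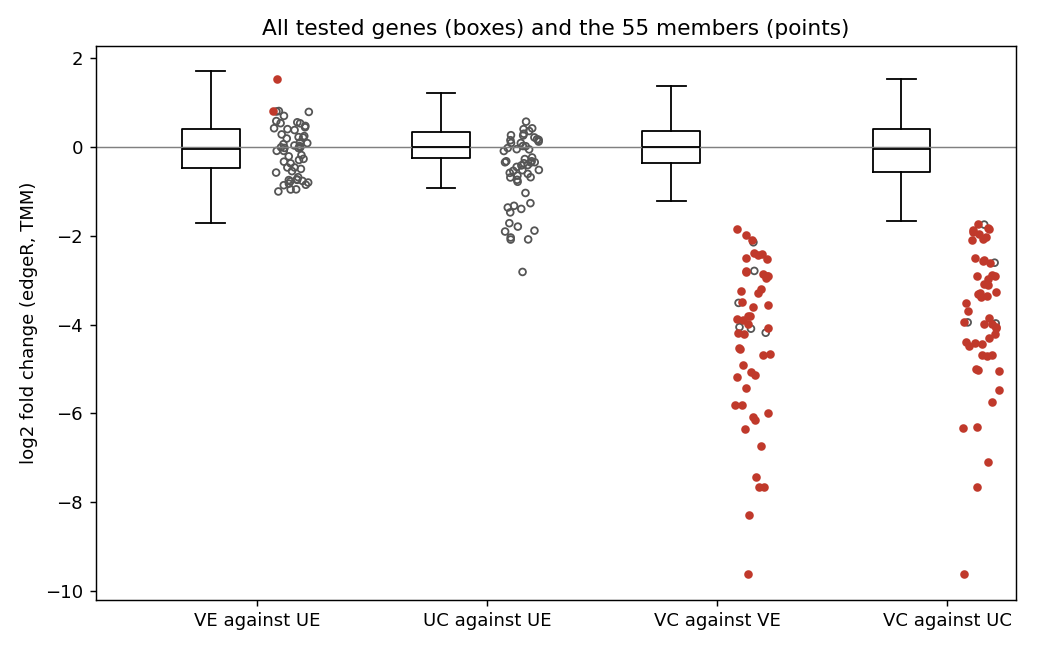
Log2 fold changes (edgeR, TMM scaling) of all 59225 tested genes as boxes (median, quartiles, whiskers at the 5th and 95th percentiles) and of the 55 members as points, filled where adjusted p was below 0.05. Members lie around 0 in VE against UE, with 2 filled points, trail below 0 in UC against UE with none filled, and are low by choice in both contrasts with VC.

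A group of members shared a high level in a single unvariegated-edge library. In 13 of the 55, or 23.6%, UE2 was at least 2 times the highest of the other 8 libraries outside VC; this held for 37, or 0.127%, of the 29160 genes with at least 1 CPM in those 9 libraries. The pattern was noticed in the data. Some of the 13 had identifiers close in number and may share reads. Their median pairwise correlation over the other 8 libraries, on the log2 scale, was 0.77, so the 13 are not separate observations. The highest UE2 values are not a criterion of the choice, although they add to the mean CPM by which the 150 most abundant genes were defined. In these 13, UE2 was 3.72 to 12.9 times the median of the other 8, with a median of 5.29; in the other 42 members the median was 1.09. UE2 was the highest of the 9 libraries in 22 members, or 40%, against 14.2% of those 29160 genes. These 22 include all of the 13, so the 40% is not a separate reading.

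The largest of the 13 by CPM was Cluster-20123.34662, given above. Cluster-20123.89532 had the highest ratio of UE2 to the median of the other 8, at 12.9. At the variegated edge, VE1 was the lowest of the 3 VE libraries in 13 of the 13. The same held for 45.3% of the same 29160 genes and 20 of the other 42 members. This order is a reading of a single library in linked members. Members of this group were also deeply reduced in VC: their ratio of VC to the lowest outside value had a median of 0.0777, against 0.286 in the other 42, and 7 of the 13 were at or below 0.1. Of the 37 genes with this UE2 pattern, edgeR called 12 lower in VC than in VE, and these 12 were all members. Members were chosen by these ratios, which favours such calls, so neither tests a link between the UE2 pattern and the VC level. For the 24 of the 37 that are not members, the median log2 fold change in VC against VE was -0.81, beside 0.00 over all tested genes. The interaction is the zone difference in variegated leaves minus that in unvariegated leaves. Its median log2 values were -3.79 in the 13 and -3.39 in the other 42. It takes in UC against UE, where the medians were -1.79 and -0.25, so the high UE2 values of the 13 enter it. The 19 members called for the interaction by edgeR were all among the 42. DESeq2 called 8 of the 13 and 35 of the 42, and edgeR without UE2 called 8 and 15. What set UE2 apart was not tested, and its label differs from those of UE1 and UE3 only in the replicate number.

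**Figure D4:**
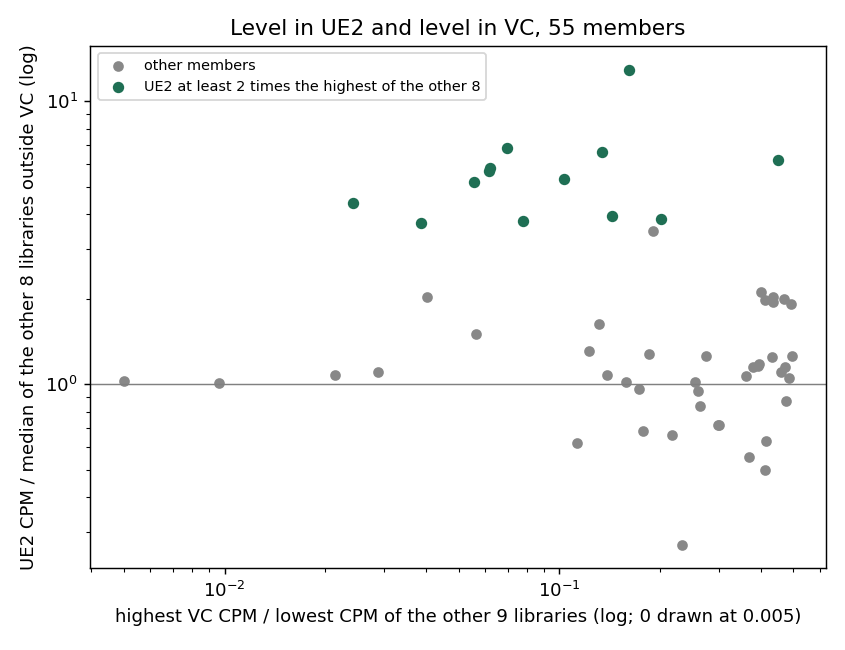
For each of the 55 members, the UE2 level over the median of the other 8 libraries outside VC (vertical, log scale) against the highest VC level over the lowest level outside VC (horizontal, log scale; 0 drawn at 0.005). The 13 green members, with UE2 at least 2 times the highest of the other 8, lie at 3.72 or above, and 12 of them have a ratio of at most 0.25; grey members mostly lie near 1.

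All 55 members belonged to the largest assembly group, as did 93.6% of the 29160 genes. By identifier, 17 lay in 8 runs in which neighbours were at most 3 identifier numbers apart, the longest of 3 members. Close identifiers may be variants of a single gene and may share reads, so the members are not 55 independent genes. In the run of 3, Cluster-20123.27358 and Cluster-20123.27359 were highest at the variegated edge, with means of 16.3 and 112.4 CPM in VE and 11.1 and 78.5 CPM in UE. The third, Cluster-20123.27360, had 84.3 CPM in UE2 against 21.7 and 25.2 CPM in UE1 and UE3, while UE2 did not stand out in the other 2 of the run (13.1 and 82.6 CPM). In the run of Cluster-20123.83235 and Cluster-20123.83236, both had VE below UE and UC, with means of 17.6 against 35.6 and 51.5 CPM for the former. Identifiers other than those of the naming rule were picked here after their values were seen.

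Some genes with neighbouring identifiers were also lower in VC. Of 117 tested genes within 3 identifier numbers of a member and not members themselves, 9 (7.69%) were called lower in VC than in VE, beside the 0.571% of all tested genes. Lower than both VE and UC were 5 (4.27%), against 0.274%, and higher than both was 1, against 0.189%. Of these 5, 3 were genes left out of the set for being low in both variegated zones. These 3 had met the VC criterion, so their calls, here and among the 9, follow from the choice. All 3 lay in a stretch of 7 consecutive identifiers that also held 2 members. In that stretch all 7 had their lowest mean in VC, which the choice fixes for those 3 and the 2 members. Its most abundant gene had 18.2 CPM in VE, 3.65 CPM in VC, 52.1 CPM in UE and 50.1 CPM in UC (means of 3 libraries).

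Length and read sharing were compared as a description. The members' effective length implied by counts and FPKM had a median of 1386 bases, against 1101 bases in the 29160 genes with at least 1 CPM outside VC, and 72.7% of members reached 1000 bases, against 54.8%. Counts were whole (within 0.005) in every library in 25.5% of members and 24.8% of those genes. A count that is not whole comes from reads divided among clusters.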

How the data were processed

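The members and every summary of them were chosen with earlier results of these data known. The authors deposited expected counts and FPKM values for 185746 transcript clusters in 12 libraries; CASAVA 1.8, RSEM and Bowtie2 are named in the submitters' processing notes, while an assembler and a reference are not given in the sources used here. Deposited FPKM values were read as counts divided by effective length and library total. Levels are CPM by library total unless TMM is named. For testing, counts were rounded and filtered with filterByExpr (minimum count 10, total 15), which kept 59225 genes. edgeR 4.0.16 (R 4.3.3) was used with TMM, robust glmQLFit and glmQLFTest, all 12 libraries in 1 fit, Benjamini-Hochberg adjustment over all tested genes and a threshold of 0.05. Standard errors are the absolute log2 fold change over the square root of F. TMM factors ran from 0.807 in VE1 to 1.16 in VC3.

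Identifiers were named by rule: the 2 lowest ratios, the 2 highest levels, the genes on either side of the ratio threshold and the extremes of VE against UE and UC against UE (called members where any passed). No list of cell types or pathways could be applied. Floors cover counting error only. On simulated counts for 55076 genes, 50 genes of at least 1 CPM were raised in VE at each fold. No other group difference was simulated. In VE against UE, edgeR recovered 10% of those changed 2-fold, 80% at 4-fold and 100% at 8-fold, with 4 false calls. In the measured data edgeR called 1970 genes higher and 1150 lower in this contrast, far more than were changed here. The recovery rates may therefore not carry over. Genes lowered in VE were not simulated, so their recovery is not known. Alternatives were RLE factors, library totals, no filter, DESeq2 1.42.0, limma 3.58.1 on log2 of the deposited FPKM plus 1, a replicate block, fewer groups in the fit, each library left out, and other settings of the choice. Figures used matplotlib 3.10.9.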

Additional observations from a re-analysis of the deposited data

Results flagged for a closer look

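The zone difference (centre minus edge) differed between variegated and unvariegated leaves in 5 of the named members, by the interaction term of edgeR's quasi-likelihood test. The choice of members favours this, so it is a description. On the log2 scale the difference was -7.88 for Cluster-20123.85164, -6.30 for Cluster-20123.27358, -4.35 for Cluster-20123.83236 and -3.38 for Cluster-20123.19830. The last was called in 5 of 18 other settings, with edgeR adjusted p = 0.0402 and a highest value of 0.15 among them. For Cluster-20123.11098 the fitted value was -9.92, which depends on the prior count because the VC libraries held no counts and is not a bound.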

How the results depend on the processing

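With each library left out, the count of members called was 0 to 4 in VE against UE (2 with all), 27 to 49 in VC against VE (49 with all), 32 to 52 in VC against UC (51 with all) and 9 to 23 for the interaction (19 with all). In VE against UE the count was 1 with library totals only, and 4 with DESeq2, with only the 2 groups compared and with the 9 libraries outside VC. DESeq2 called 43 in the interaction, where it called 381 of all tested genes lower and edgeR called 36. UC against UE gave 0 in each of the 20 other settings run. With a library left out, Cluster-20123.23235 in UC against UE ran from -0.14 to 0.92. Over all settings the log2 fold changes of 4 named members not called in VE against UE also crossed 0 there: from -0.17 to 0.23 (Cluster-20123.19828), -1.15 to 0.34 (Cluster-20123.34662), -0.07 to 0.34 (Cluster-20123.85164) and -1.44 to 0.90 (Cluster-20123.89532). In UC against UE so did Cluster-20123.19830 (-0.11 to 0.40), Cluster-20123.27358 (-0.49 to 0.11) and Cluster-20123.83236 (-0.12 to 0.32). The choice kept 56 to 81 genes with a library left out, each time including the 55, since leaving out a library mostly loosens it. It kept 29 at a ratio of 0.25, 13 at 0.1, 17 at a level of 10 CPM, 76 with TMM-scaled CPM (53 shared with the 55) and 74 with FPKM (46 shared). Whether replicate numbers pair the libraries was not settled. Correlations of same-numbered deviations ran from -0.0616 to 0.13, and differently numbered libraries were not compared. With the replicate block the counts were 2 in VE against UE, 0 in UC against UE and 15 for the interaction, and 47 and 50 members were lower in VC than in VE and UC. Members near 1 CPM rest on few counts, which limits their ratios.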
